A study of Mus musculus with 12 samples.

Results

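The genes described here encode the machinery of mitotic and meiotic division: cyclins, the kinases and phosphatases that they act with, the spindle checkpoint, the anaphase-promoting complex, the kinetochore, condensin and the spindle. They were listed by name, and a probe belonged to a gene when the array annotation gave that gene's symbol. A gene's value was that of its probe with the highest mean over all arrays. Of the 50 genes listed, 48 had a named probe, among 19038 genes with one. Ccnb1 and Tacc3 had none in the annotation used here and were not analysed. The 48 genes had 97 probes in all, and 15 genes had 1 probe each.

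RNA came from testes of C57Bl/6N mice that were either wild-type (WT) or Topaz1-/- (KO), at 15 or 20 days after birth (P15 or P20). Each of the 4 groups held 3 biological repeats, and each sample was hybridised to 1 Illumina mouse bead array, which gave 12 arrays. The labels name no treatment, Cre or transgene, and Topaz1-/- is the one allele they give. They do not say whether a repeat is 1 animal or a pool, nor which part of Topaz1 was deleted. No probe was named Topaz1 (0 probes), so the genotype labels were not checked on these arrays. The p-values below rest on a spread within groups that was estimated from all 4 groups together, not from the compared groups alone. Each group held 3 samples, and this small number limits their precision.

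Entry into a division is driven by CDK1 bound to a B-type or A-type cyclin, which CDC25 phosphatases switch on and the kinases WEE1 and PKMYT1 hold off. Exit follows when the anaphase-promoting complex, held back by the spindle checkpoint until chromosomes are attached, destroys cyclins and securin and so frees separase. In the mouse testis, spermatogonia divide by mitosis, and spermatocytes pass a long prophase before a pair of meiotic divisions. In the first wave of germ cells the oldest cells at P15 are in prophase, and around P20 the first of them pass these divisions.

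Values are log2 of the quantile-normalized intensity plus an offset of 50, written in the order of replicates 1, 2 and 3. A probe was called above background on an array when it exceeded 7.53 on this scale. By this rule 39 of the 48 genes were above background on all 3 arrays of at least 1 group. The other 9 were Ccna2, Ccnb2, Cks2, Wee1, Bub1, Fbxo43, Fbxo5, Cenpe and Nuf2, whose probes gave no more than a bound. All changes were tested with limma over all 45281 probes, with Benjamini-Hochberg adjusted p-values and a threshold of 0.05. The level of one gene cannot be set against that of another on these arrays, so only changes are compared between genes.

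The tissue label was checked against marker genes. All 11 Sertoli cell markers were above background on all 3 arrays of the WT groups, as were 10 of 12 spermatogonial markers. Of 13 pachytene spermatocyte markers, 7 were above background on all 3 WT arrays at P15 and 10 at P20. The summed intensity of these 13 lay between 5076 and 18230 on the WT P15 arrays and between 64780 and 77190 on the WT P20 arrays. Probes of 11 round spermatid markers summed to 1575 to 1777 at P15 and 3383 to 5108 at P20 in WT. Fewer cells of a type and less RNA per cell cannot be told apart in whole-testis RNA, and this applies to every result below.

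More of the division genes passed with age than between genotypes. From P15 to P20 in WT testes, 15 of the 48 genes rose (31.2%), 3 fell (6.25%) and 30 did not pass. Over all probes, 8.28% rose and 11.8% fell in that comparison, and over the 12074 genes above background 17.4% rose and 25.9% fell. Here and below, shares of the 48 include the 9 genes not above background, which the 12074 leave out. In KO testes 15 rose, 9 fell and 24 did not pass, against 10.1% of all probes that rose and 15.5% that fell, or 20.6% and 33.8% of the genes above background. The median change of the 39 genes above background was 0.13 in WT and 0.07 in KO on the log2 scale, where all genes above background had medians of -0.085 and -0.099. The balance of rises and falls depended on the scaling. With cyclic loess 16 genes rose and 4 fell in KO, and 16 rose and 3 fell in WT, while over all probes 5149 rose and 4656 fell in KO and 4890 and 3571 in WT, against 4566 and 7015, and 3750 and 5352, with quantile normalization.

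Between genotypes, 0 of the 48 genes passed at P15 and 1 passed at P20, Cdk2ap2, which fell. The background of these comparisons was 0.00442% of probes at P15 and 1.04% at P20. Cdk2ap2 was put on the list with its P20 fall already known, so its call cannot be weighed against this background.

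**Figure D1:**
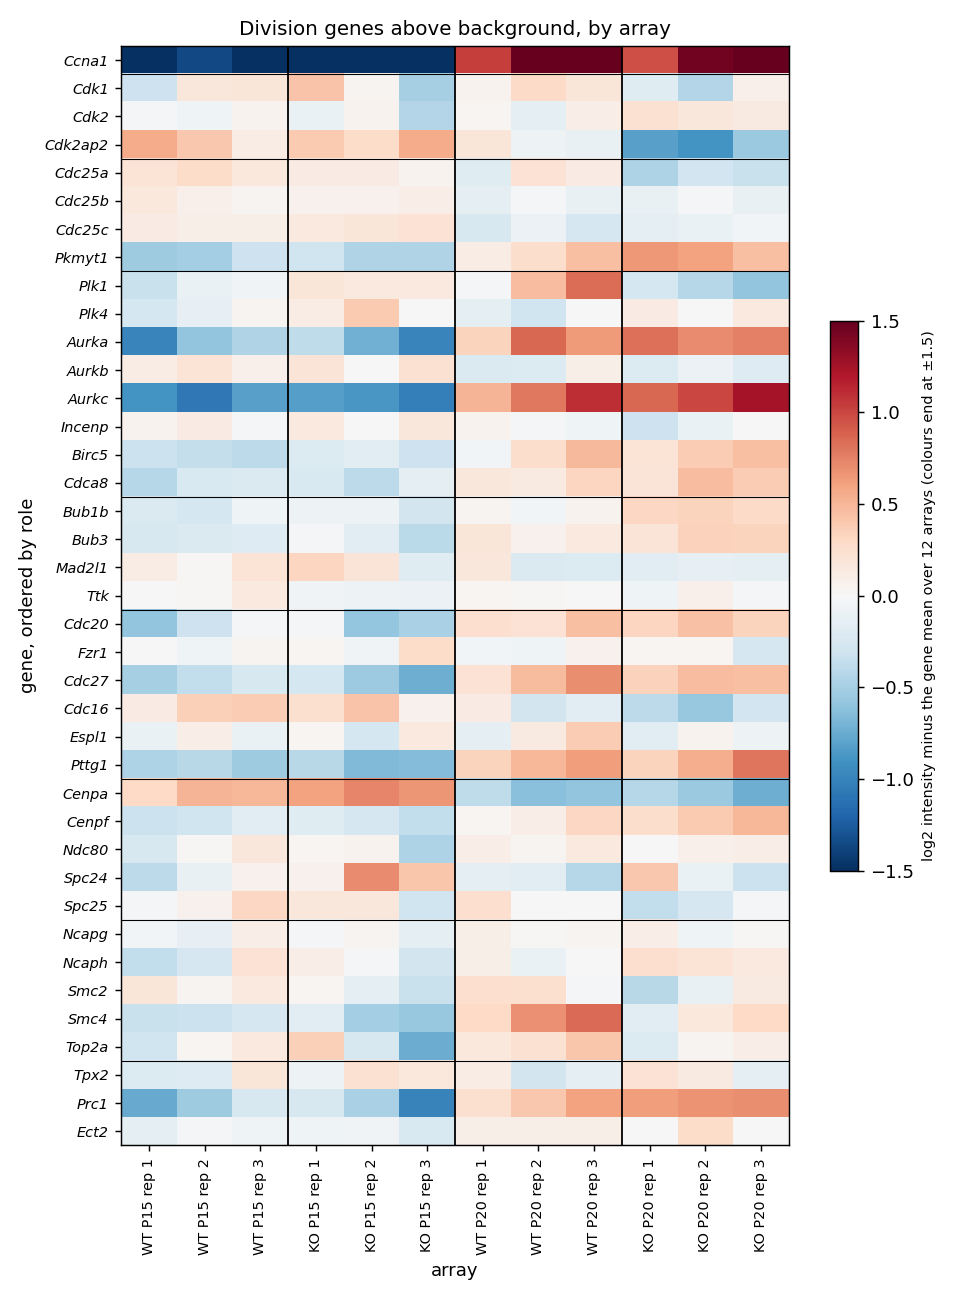
Log2 intensity of the 39 division genes above background on each of the 12 arrays, as the difference from the gene's mean over all arrays, with genes in rows ordered by role and arrays in columns by group. Colours end at -1.5 and 1.5 log2 units. Ccna1, Aurka, Aurkc, Pttg1 and Prc1 are red on the P20 arrays of both genotypes, Cenpa is blue there, and Cdk2ap2 and Plk1 are blue on the KO P20 arrays.

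The promoters of 6 genes are shown as examples. Ccna1, Aurkc and Cdc20 rose with age in both genotypes, and Cdk1, which passed in no comparison, is the kinase at the centre of the group. Plk1 and Cdk2ap2 had the lowest KO minus WT differences at P20. Other genes that rose more than Cdc20, such as Aurka, Pttg1 and Prc1, are not shown. Each window runs from 250 bases before the transcript start to 30 bases after it, from RefSeq on build GRCm38.p6, written 5′ to 3′ on the strand of the gene. Capitals mark TTTGAA, the core of the cell cycle homology region (CHR), and CCAAT with its reverse ATTGG. The full cAMP response element TGACGTCA was also searched and is absent from these 6 windows. The windows lie at chr3:55055026-55055305 on the minus strand for Ccna1, chr7:6995135-6995414 on the plus strand for Aurkc and chr4:118437314-118437593 on the minus strand for Cdc20. Those of the others are chr10:69352883-69353162 on the minus strand for Cdk1, chr7:122159185-122159464 on the plus strand for Plk1 and chr19:4097101-4097380 on the plus strand for Cdk2ap2. For Ccna1, Cdk2ap2 and Aurkc the start used lies inside the annotated gene (chr3:55045469-55057634, chr19:4096206-4099019 and chr7:6995347-7003091), so other transcripts begin upstream of it.
Ccna1: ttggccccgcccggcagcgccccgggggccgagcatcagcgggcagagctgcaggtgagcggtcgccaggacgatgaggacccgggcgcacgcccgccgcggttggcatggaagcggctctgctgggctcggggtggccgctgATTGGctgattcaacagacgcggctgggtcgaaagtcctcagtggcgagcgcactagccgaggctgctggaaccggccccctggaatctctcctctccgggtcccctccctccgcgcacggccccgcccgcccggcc
Aurkc: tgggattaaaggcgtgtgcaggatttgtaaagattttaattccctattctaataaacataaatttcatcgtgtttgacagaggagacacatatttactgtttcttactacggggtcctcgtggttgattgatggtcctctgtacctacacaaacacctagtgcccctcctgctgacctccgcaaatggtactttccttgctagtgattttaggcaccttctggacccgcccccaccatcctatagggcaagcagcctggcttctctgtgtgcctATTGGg
Cdc20: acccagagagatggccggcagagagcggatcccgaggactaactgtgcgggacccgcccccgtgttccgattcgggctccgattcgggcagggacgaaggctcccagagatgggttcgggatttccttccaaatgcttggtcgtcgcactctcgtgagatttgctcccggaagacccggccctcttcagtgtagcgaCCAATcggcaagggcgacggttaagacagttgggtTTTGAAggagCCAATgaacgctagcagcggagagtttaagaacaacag
Cdk1: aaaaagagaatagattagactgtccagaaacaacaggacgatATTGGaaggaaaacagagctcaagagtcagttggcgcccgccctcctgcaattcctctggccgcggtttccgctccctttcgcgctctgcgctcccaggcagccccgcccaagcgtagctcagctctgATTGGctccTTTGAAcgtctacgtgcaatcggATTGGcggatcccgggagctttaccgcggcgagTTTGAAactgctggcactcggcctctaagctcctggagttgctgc
Plk1: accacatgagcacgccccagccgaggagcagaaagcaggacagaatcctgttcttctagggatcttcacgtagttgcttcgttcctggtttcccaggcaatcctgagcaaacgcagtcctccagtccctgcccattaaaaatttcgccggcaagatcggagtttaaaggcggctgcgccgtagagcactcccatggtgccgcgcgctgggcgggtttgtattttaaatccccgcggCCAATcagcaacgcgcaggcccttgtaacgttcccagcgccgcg
Cdk2ap2: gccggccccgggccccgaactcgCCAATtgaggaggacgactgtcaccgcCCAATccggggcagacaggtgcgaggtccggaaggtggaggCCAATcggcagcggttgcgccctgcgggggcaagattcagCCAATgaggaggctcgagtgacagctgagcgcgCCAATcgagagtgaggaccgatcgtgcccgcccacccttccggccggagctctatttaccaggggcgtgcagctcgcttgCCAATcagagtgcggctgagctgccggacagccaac

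Cdk1 carried 2 CHR cores, which began 71 and 15 bases before the start, and 3 CCAAT letters in reverse. Cdc20 carried 1 CHR core, 18 bases before the start, between CCAAT boxes 53 and 8 bases before it. Plk1 held a CCAAT box 14 bases before the start, and its CHR core begins at base 31 after the start, just past the printed window. Ccna1 and Aurkc held 1 reverse CCAAT each and no CHR core, while Cdk2ap2 held 6 CCAAT boxes and no CHR core. These matches are descriptions of letters in a window and show nothing of binding.

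Windows from 250 bases before to 50 after the start were found for 38 of the 48 genes, 3 of which had several. Both strands were searched, and 1 pair of different motifs overlapped. TTTGAA occurred in 20 of the 38 genes (52.6%), against 20.2% of all 27025 genes with a window. CCAAT occurred in 30 of them (78.9%), against 41.1% of all genes, and TGACGTCA in 3 (7.9%), against 2.0%. Among the 13 genes with a window that rose with age in WT, 8 held TTTGAA and 11 held CCAAT. Among the 6 with a window that fell with age in WT or KO, 2 held TTTGAA and 5 held CCAAT. Plk1, which rose in WT and fell in KO, is in both sets and held both motifs.

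Ccna1 had the largest rise with age of the group. It encodes cyclin A1, a partner of CDKs found in germ cells that male mice need to enter the first meiotic division. Its log2 intensity was 7.46, 7.67 and 7.53 on the WT P15 arrays and 10.07, 10.88 and 11.10 on the WT P20 arrays. The KO arrays gave 7.49, 7.46 and 7.41 at P15 and 10.00, 10.47 and 10.80 at P20. All P20 arrays lay above all P15 arrays in both genotypes, and WT and KO overlapped at P20. In WT, where 1 of 3 P15 arrays was above background, Ccna1 rose by 3.13 ± 0.25 (SE, n = 3 per group), or 8.74-fold, with a limma adjusted p of 1.57e-05. Over 25 other settings this WT change ran from 2.92 to 4.97 on the log2 scale, so its size depended on the processing. In KO, where 0 of 3 P15 arrays were above background, Ccna1 was at least 7.41-fold higher at P20 (adjusted p = 1.37e-05). At P20 KO differed from WT by -0.26 ± 0.25 (adjusted p = 0.782).

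Ccna2 encodes cyclin A2, which acts in S phase and early mitosis in dividing cells, and Ccnb2 encodes a B-type cyclin. Their probes were not well above background on any of the 12 arrays. Ccna2 read between 7.33 and 7.45 on the WT arrays and between 7.35 and 7.44 on the KO arrays. Ccnb2 read 7.37, 7.36 and 7.45 at P15 and 7.38, 7.37 and 7.34 at P20 in WT, and 7.33, 7.39 and 7.39 and then 7.38, 7.43 and 7.39 in KO. Nothing can be said of either cyclin from probes at this level.

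Among the kinases and their partners, Cdk1 and Cdk2 did not pass between genotypes. Cdk1, the kinase that triggers entry into M phase, read 10.25, 10.73 and 10.74 in WT and 10.98, 10.60 and 10.06 in KO at P15. The P20 arrays gave 10.61, 10.84 and 10.74 in WT and 10.37, 10.12 and 10.63 in KO. The groups overlapped at both ages, and the P20 difference was -0.36 ± 0.22 (SE, adjusted p = 0.613). Cdk2, which acts at the G1/S transition and at the telomeres of meiotic chromosomes in mice, read 12.64, 12.59 and 12.71 in WT and 12.56, 12.71 and 12.21 in KO at P15. At P20 its KO arrays (12.88, 12.83 and 12.79) all lay above its WT arrays (12.68, 12.51 and 12.75), a difference of 0.18 ± 0.11 (adjusted p = 0.583). Cdk2 rose with age in KO by 0.33 ± 0.11 (adjusted p = 0.0469), and in WT the change was 0.00 ± 0.11. Its other 3 probes gave age changes in KO of 0.13, 0.58 and 0.27. Between genotypes these probes gave 0.11, -0.07 and -0.03 at P20, all with overlap. At P15 they gave -0.31, -0.54 and -0.38. For the probes at -0.54 and -0.38 all KO arrays lay below all WT arrays, without a call (limma adjusted p = 0.434 and 0.466). The genotype differences of Cdk2 thus depended on the probe. Cks2, a small protein that binds CDKs, was not above background on any array (7.40, 7.38 and 7.38 in WT and 7.41, 7.46 and 7.44 in KO at P15).

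Cdk2ap2 was the 1 gene of the group that passed between genotypes. It encodes a CDK2-associated protein, and it was put on the list with its fall at P20 already known, so its call is no independent evidence. At P15 it read 10.74, 10.58 and 10.29 in WT and 10.57, 10.45 and 10.73 in KO, and the groups overlapped. At P20 it read 10.36, 10.10 and 10.07 in WT and 9.36, 9.28 and 9.62 in KO, with all KO arrays below all WT arrays. The P20 change was -0.76 ± 0.13 (SE), or 1.69-fold lower in KO, with a limma adjusted p of 0.0309. Leaving out WT P15 replicate 2, WT P20 replicate 1 or 2, or KO P20 replicate 1 or 2 ended the call, with adjusted p between 0.0566 and 0.117 and changes that kept their sign.

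Cdk2ap2 also fell with age in KO testes. From P15 to P20 it fell by 1.17 ± 0.13 in KO (2.24-fold, adjusted p = 0.000106), while in WT the change was -0.36 ± 0.13 (adjusted p = 0.0936). The genotype effect at P20 minus that at P15 was -0.81 ± 0.19, which did not pass (adjusted p = 0.236). Its 280-base promoter window, shown above, is the one with 6 CCAAT boxes.

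The phosphatases and inhibitory kinases of CDK1 were called in both directions with age. Cdc25a, whose product activates CDK2 and CDK1, read 10.00, 10.07 and 9.96 in WT and 9.92, 9.92 and 9.85 in KO at P15. The P20 values were 9.62, 10.01 and 9.92 in WT and 9.34, 9.51 and 9.46 in KO. All 3 KO arrays lay below all 3 WT arrays at each age. The difference was -0.12 ± 0.09 at P15 (SE, adjusted p = 0.835) and -0.41 ± 0.09 at P20 (adjusted p = 0.0586). At P20 it passed under 4 of 25 other settings: without WT P20 replicate 1, the lowest WT array (-0.53, adjusted p = 0.0033), with dim probes left out, with array weights and with the mean over the gene's probes. Cdc25a fell with age in KO by 0.46 ± 0.09 (adjusted p = 0.00278), and in WT the change was -0.16 ± 0.09 (adjusted p = 0.27).

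Cdc25b and Cdc25c, the other members of the CDC25 family, fell with age in both genotypes. Cdc25c read 8.36, 8.33 and 8.33 at P15 and 8.00, 8.15 and 7.99 at P20 in WT, and 8.38, 8.42 and 8.46 and then 8.09, 8.14 and 8.20 in KO. It fell by 0.29 ± 0.05 in WT (SE, adjusted p = 0.00137) and by 0.28 ± 0.05 in KO (adjusted p = 0.0013). All its P20 arrays lay below all its P15 arrays, and at P15 its KO arrays lay above its WT arrays by 0.08 ± 0.05 (adjusted p = 0.753). A further Cdc25c probe above background gave -0.01 at P15, with overlap. Cdc25b, close to background, read 7.80, 7.72 and 7.68 and then 7.51, 7.62 and 7.53 in WT, and 7.71, 7.71 and 7.74 and then 7.53, 7.62 and 7.53 in KO. It fell by 0.18 ± 0.04 in WT (adjusted p = 0.0122) and by 0.16 ± 0.04 in KO (adjusted p = 0.019), and the WT call was lost without WT P15 replicate 1. Neither gene passed between genotypes at either age.

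Pkmyt1 encodes the membrane-bound kinase that keeps CDK1 inactive. It rose with age, from 7.72, 7.75 and 7.95 to 8.37, 8.52 and 8.71 in WT and from 7.96, 7.80 and 7.80 to 8.91, 8.86 and 8.71 in KO. The rise was 0.73 ± 0.10 in WT (1.66-fold, adjusted p = 0.000392) and 0.98 ± 0.10 in KO (1.97-fold, adjusted p = 3.72e-05). Its P20 groups touched at 8.71, and the genotype difference there was 0.29 ± 0.10 (adjusted p = 0.217). Another Pkmyt1 probe had age changes of 0.12 in WT and 0.26 in KO, and the remaining one, dim, had -0.11 and -0.09. Wee1, which encodes the nuclear kinase of the same role, was above background on 2 of the 12 arrays and is not interpreted.

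Plk1, a kinase needed for entry into mitosis, spindle assembly and exit, had the lowest P20 change of the group and the 1 pair of opposite age changes. At P15 it read 9.88, 10.12 and 10.16 in WT and 10.40, 10.37 and 10.37 in KO, so that all KO arrays lay above all WT arrays. At P20 it read 10.20, 10.68 and 11.06 in WT and 9.96, 9.79 and 9.63 in KO, so that all KO arrays lay below all WT arrays. The KO minus WT difference was 0.33 ± 0.18 at P15 (SE, adjusted p = 0.718) and -0.85 ± 0.18 at P20 (adjusted p = 0.0563). Neither passed, and the difference between them, -1.18 ± 0.25, did not pass either (adjusted p = 0.188). Along age, Plk1 rose in WT by 0.59 ± 0.18 (adjusted p = 0.0393) and fell in KO by 0.59 ± 0.18 (adjusted p = 0.0334).

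The WT P20 arrays of Plk1 spread more than those of the other groups, and several of its calls depended on single arrays. The P20 difference passed under 8 of 25 other settings: 75th percentile scaling, normexp at either offset, an offset of 16, dim probes left out, an intensity trend, array weights, and without WT P20 replicate 1. Over the 25 it ran from -1.08 to -0.64, with adjusted p from 0.00684 to 0.363. Without WT P20 replicate 1, the lowest of them, it was -1.08 (limma adjusted p = 0.00684) and the difference between the genotype effects was -1.40 (adjusted p = 0.0187). The WT rise was lost when any 1 of the WT P15 arrays was left out, and also without replicate 2 or replicate 3 of WT P20. It was lost as well without either of the first 2 KO P15 replicates and without the second KO P20 replicate. The KO fall was lost without any 1 of the KO P15 arrays or without KO P20 replicate 2 or 3. Plk1 had 1 probe.

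Plk4, the kinase that starts centriole duplication, had no call. It read 8.18, 8.32 and 8.49 in WT and 8.56, 8.84 and 8.45 in KO at P15, where the groups overlapped. Values at P20 were 8.31, 8.15 and 8.45 in WT and 8.57, 8.45 and 8.59 in KO, a difference of 0.23 ± 0.11 (SE, adjusted p = 0.467). Its age changes were -0.03 ± 0.11 in WT and -0.08 ± 0.11 in KO.

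**Figure D2:**
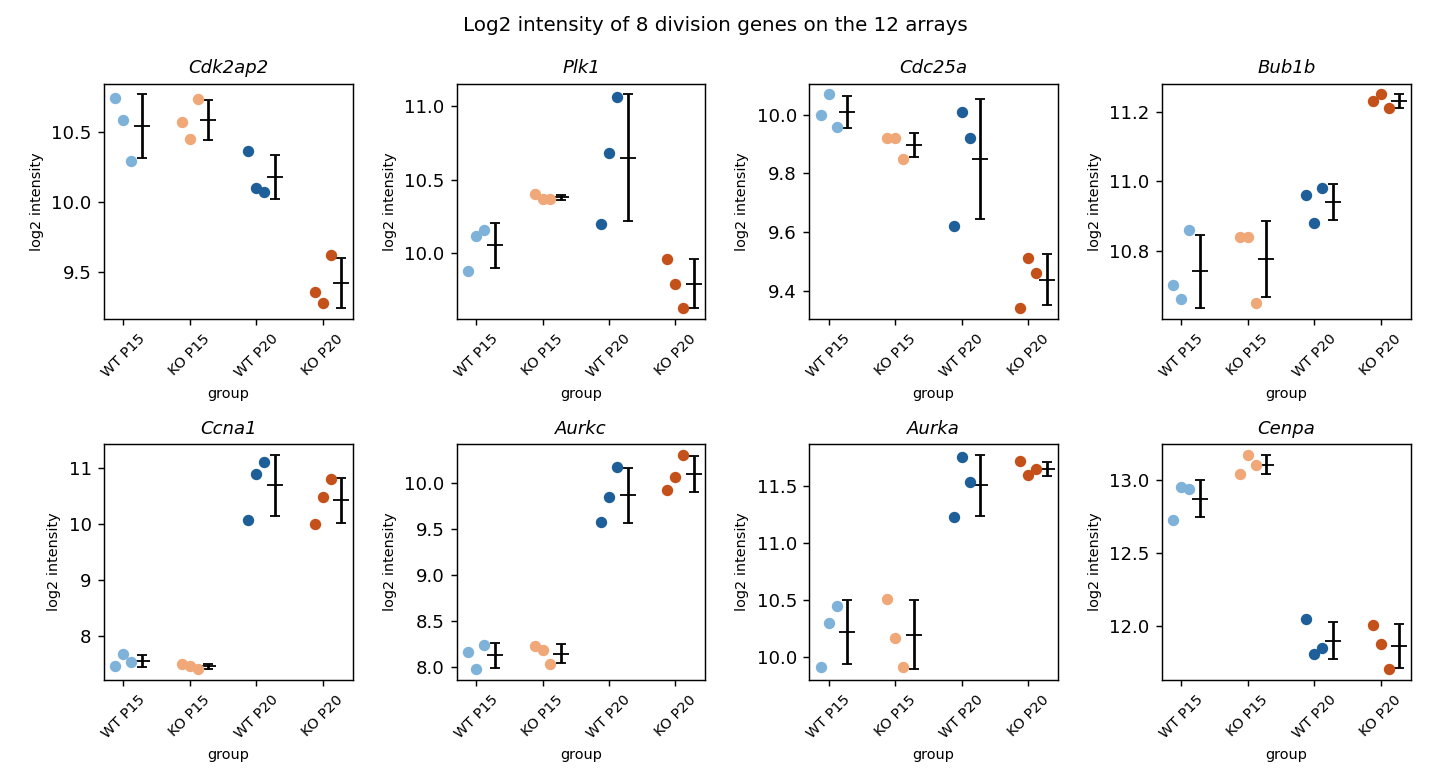
Log2 intensity of 8 division genes, one panel each, with a point for each of the 12 arrays by group and a bar for the mean and SD of 3 arrays. Cdk2ap2, Plk1 and Cdc25a lie lowest on the KO P20 arrays and Bub1b highest there, whereas Ccna1, Aurkc, Aurka and Cenpa separate by age and overlap between genotypes at P20.

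The 3 aurora kinases differed in their calls with age. Aurkc, the aurora kinase of meiotic cells, rose from 8.16, 7.98 and 8.24 to 9.57, 9.85 and 10.17 in WT and from 8.23, 8.18 and 8.03 to 9.92, 10.06 and 10.30 in KO. The rise was 1.73 ± 0.15 in WT (SE, 3.33-fold, adjusted p = 2.3e-05) and 1.95 ± 0.15 in KO (3.87-fold, adjusted p = 6.41e-06). A dimmer Aurkc probe, close to background, rose by 0.29 in WT and 0.28 in KO. Aurka, which builds the spindle poles, rose from 9.91, 10.30 and 10.45 to 11.23, 11.76 and 11.54 in WT and from 10.51, 10.17 and 9.91 to 11.72, 11.60 and 11.65 in KO. That rise was 1.29 ± 0.18 in WT (2.45-fold, adjusted p = 0.000599) and 1.46 ± 0.18 in KO (2.75-fold, adjusted p = 0.000177). Both separated P15 from P20 on every array and overlapped between genotypes at each age.

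Aurkb, the catalytic kinase of the chromosomal passenger complex in mitosis, did not rise. It read 9.19, 9.29 and 9.16 at P15 and 8.86, 8.88 and 9.17 at P20 in WT, a change of -0.24 ± 0.09 that did not pass (SE, adjusted p = 0.0927). In KO it fell from 9.28, 9.07 and 9.31 to 8.88, 8.99 and 8.89, by 0.30 ± 0.09 (adjusted p = 0.0311). Whether the age changes of the aurora kinases differ from each other was not tested.

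Of the other subunits of the passenger complex, 2 rose with age in both genotypes. Birc5, or survivin, read 10.54, 10.50 and 10.47 in WT and 10.65, 10.70 and 10.55 in KO at P15, with all KO arrays above all WT arrays by 0.13 ± 0.11 (SE, adjusted p = 0.853). By P20 the arrays gave 10.82, 11.12 and 11.35 in WT and 11.07, 11.24 and 11.31 in KO, and rose by 0.60 ± 0.11 and 0.57 ± 0.11 (adjusted p = 0.00369 and 0.00341). Further Birc5 probes gave P15 differences of -0.16 and -0.08, with overlap. Cdca8, or borealin, rose by 0.50 ± 0.09 in WT and 0.60 ± 0.09 in KO (adjusted p = 0.00263 and 0.00058). Incenp, the scaffold that activates aurora B, changed by -0.07 ± 0.08 in WT and fell by 0.24 ± 0.08 in KO (adjusted p = 0.67 and 0.0409). None of these passed between genotypes.

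Of the spindle checkpoint genes, 2 of 5 rose with age in each genotype. Of all genes above background, 17.4% rose in WT and 20.6% in KO. Bub1b encodes BUBR1, which joins MAD2 and BUB3 in the complex that inhibits CDC20. It read 10.70, 10.66 and 10.86 in WT and 10.84, 10.84 and 10.65 in KO at P15. At P20 it read 10.96, 10.88 and 10.98 in WT and 11.23, 11.25 and 11.21 in KO, all KO arrays above all WT arrays. That difference, 0.29 ± 0.06 (SE), was the highest at P20 among the genes whose arrays did not overlap. It did not pass (adjusted p = 0.0657), although it passed without WT P15 replicate 3 (adjusted p = 0.0445) or KO P15 replicate 3 (adjusted p = 0.0313). It also passed with cyclic loess, array weights or only the compared groups fitted. With age Bub1b rose by 0.20 ± 0.06 in WT (adjusted p = 0.0456) and by 0.45 ± 0.06 in KO (adjusted p = 0.000364). A further Bub1b probe differed at P20 by 0.26 (adjusted p = 0.56), and had age changes of 0.04 in WT and 0.30 in KO that did not pass.

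Bub3, the partner of BUB1 and BUBR1, read 8.87, 8.89 and 8.91 in WT and 9.09, 8.94 and 8.70 in KO at P15. The P20 arrays read 9.29, 9.17 and 9.25 in WT and 9.30, 9.46 and 9.44 in KO, a difference of 0.16 ± 0.08 without overlap (SE, adjusted p = 0.511). It rose with age by 0.35 ± 0.08 in WT and 0.49 ± 0.08 in KO (adjusted p = 0.0148 and 0.00149). Mad2l1, which encodes the checkpoint protein MAD2, did not pass in any comparison, with age changes of -0.20 ± 0.13 in WT and -0.25 ± 0.13 in KO. Ttk, the kinase that starts checkpoint signalling, read 7.54, 7.55 and 7.67 in WT and 7.47, 7.45 and 7.44 in KO at P15, close to the background threshold and without overlap (-0.13 ± 0.04, adjusted p = 0.551). Bub1, whose kinase recruits the other checkpoint proteins, was above background on 1 of 12 arrays (7.51, 7.51 and 7.49 in WT and 7.44, 7.39 and 7.47 in KO at P15, and 7.61, 7.44 and 7.51 and 7.48, 7.53 and 7.41 at P20).

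The anaphase-promoting complex was represented by activators, subunits and substrates. Cdc20, which switches the complex on at metaphase, read 11.54, 11.83 and 12.11 in WT and 12.11, 11.56 and 11.65 in KO at P15. It rose to 12.39, 12.35 and 12.59 in WT and to 12.46, 12.57 and 12.47 in KO, by 0.61 ± 0.16 and 0.73 ± 0.16 (SE, adjusted p = 0.02 and 0.00636). Fzr1, or CDH1, which activates the complex in late mitosis and G1, gave -0.01 ± 0.09 and -0.14 ± 0.09 by its brightest probe. A dimmer Fzr1 probe rose by 0.96 in WT and 0.91 in KO (adjusted p = 0.00139 and 0.0013), and the remaining probe gave 0.01 and -0.11, so the gene's age change depended on the probe.

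Cdc27 and Cdc16 encode subunits of the complex, and the former rose with age in both genotypes while the latter fell in KO. Cdc27 read 8.10, 8.23 and 8.36 at P15 and 8.82, 9.07 and 9.29 at P20 in WT, and 8.34, 8.05 and 7.87 and then 8.94, 9.06 and 9.05 in KO. It rose by 0.83 ± 0.13 in WT and 0.93 ± 0.13 in KO (SE, adjusted p = 0.0015 and 0.00048). A dimmer Cdc27 probe rose by 0.25 in WT and 0.24 in KO, and the remaining one gave 0.06 and -0.04. Cdc16 read 9.59, 9.83 and 9.85 at P15 and 9.59, 9.20 and 9.30 at P20 in WT, a change of -0.39 ± 0.12 (adjusted p = 0.0503). In KO it fell from 9.71, 9.90 and 9.54 to 9.08, 8.90 and 9.18, by 0.66 ± 0.12 (adjusted p = 0.00255). At P20 its KO arrays lay below its WT arrays by 0.31 ± 0.12 without overlap, and this did not pass (adjusted p = 0.344).

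Pttg1, or securin, the inhibitor that the complex destroys to free separase, rose with age. It went from 7.82, 7.86 and 7.75 to 8.62, 8.78 and 8.91 in WT and from 7.87, 7.62 and 7.63 to 8.61, 8.83 and 9.08 in KO. The rise was 0.96 ± 0.12 (SE, 1.94-fold, adjusted p = 0.00025) and 1.13 ± 0.12 (2.19-fold, adjusted p = 5.34e-05), with no overlap between ages. Espl1, which encodes separase itself, did not pass in any comparison (0.16 ± 0.14 with age in WT and -0.04 ± 0.14 in KO). The inhibitors Fbxo5 (EMI1) and Fbxo43 (EMI2) were not above background on any array.

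Cenpa had the largest fall with age of the group. It encodes the histone H3 variant that marks centromeres. Its arrays read 12.73, 12.95 and 12.94 in WT and 13.04, 13.17 and 13.10 in KO at P15, and all KO arrays lay above all WT arrays (0.23 ± 0.09, SE, adjusted p = 0.6). At P20 they read 12.05, 11.81 and 11.85 in WT and 12.01, 11.88 and 11.71 in KO, and the genotypes overlapped. Cenpa fell by 0.97 ± 0.09 in WT (1.96-fold, adjusted p = 4.46e-05) and by 1.23 ± 0.09 in KO (2.35-fold, adjusted p = 5.53e-06). A dimmer Cenpa probe, close to background, had age changes of -0.25 in WT and -0.23 in KO. Its P15 difference between genotypes was -0.04, with overlap. Cenpf, a large kinetochore protein of G2 and M phase, rose by 0.40 ± 0.09 in WT and 0.66 ± 0.09 in KO (adjusted p = 0.00734 and 0.000257). Its other probe, also above background, gave -0.02 in WT and fell by 0.18 in KO (adjusted p = 0.0205), so the direction in KO depended on the probe.

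The NDC80 complex, which holds microtubules at the kinetochore, showed no call. Spc24 had the highest P15 difference of the group: 8.30, 8.58 and 8.75 in WT against 8.76, 9.40 and 9.11 in KO, or 0.55 ± 0.21 without overlap (SE, adjusted p = 0.6). Its other probe, above background on every array, gave 0.00 ± 0.14 at P15 with overlap, so this difference rests on 1 of 2 probes. Its P20 values were 8.54, 8.53 and 8.26 in WT and 9.10, 8.59 and 8.37 in KO, and the groups overlapped. Its partner Spc25 read 8.83, 8.92 and 9.16 in WT and 9.02, 9.02 and 8.55 in KO at P15, and 9.10, 8.86 and 8.85 and 8.48, 8.60 and 8.82 at P20. That P20 difference was -0.30 ± 0.14 without overlap (adjusted p = 0.456). The subunit Ndc80 changed by -0.04 ± 0.13 between genotypes at P20, and the probes of Nuf2 and of the kinesin gene Cenpe were not above background on any array.

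**Figure D3:**
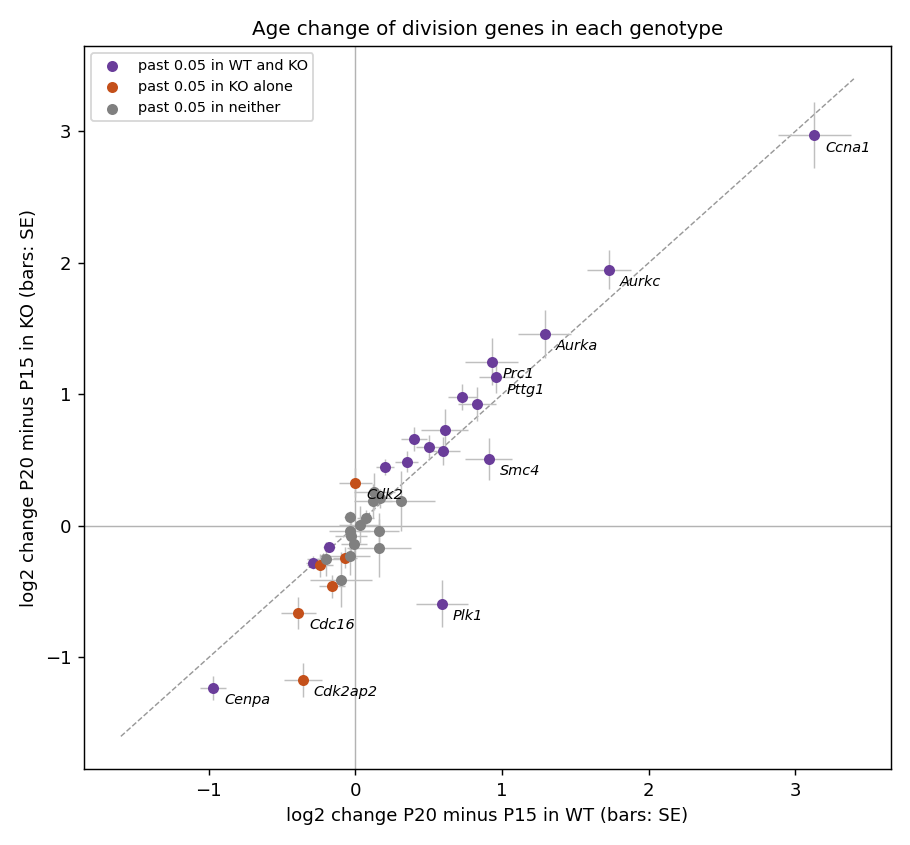
Log2 change from P15 to P20 in KO (vertical axis) against that in WT (horizontal axis) for the 39 division genes above background, with SE bars and a dashed line where the 2 are equal. Colour shows where the change passed an adjusted p of 0.05. Plk1, 0.59 in WT and -0.59 in KO, is the 1 gene that passed in both with opposite signs, and Cdk2ap2 lies below the line at -1.17 in KO.

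Among the genes of chromosome condensation, Smc4 rose with age. Smc4 and Smc2 encode the ATPase core of condensin. Smc4 read 8.35, 8.37 and 8.44 at P15 and 8.99, 9.37 and 9.54 at P20 in WT, and 8.52, 8.18 and 8.12 and then 8.53, 8.84 and 8.99 in KO. It rose by 0.91 ± 0.16 in WT (SE, adjusted p = 0.00223) and by 0.51 ± 0.16 in KO (adjusted p = 0.0355), and the P20 difference of -0.51 ± 0.16 did not pass (adjusted p = 0.189). Its other 2 probes had WT age changes of -0.04 and 0.01, so this rise rests on 1 of 3 probes.

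Smc2 read 8.65, 8.51 and 8.62 in WT and 8.50, 8.34 and 8.13 in KO at P15, without overlap and without a call (-0.27 ± 0.14, SE, adjusted p = 0.703). Ncaph, the kleisin that closes the condensin I ring, read 9.72, 9.84 and 10.31 in WT and 10.19, 10.07 and 9.81 in KO at P15. At P20 it read 10.17, 9.99 and 10.09 in WT and 10.34, 10.29 and 10.23 in KO, 0.20 ± 0.14 higher without overlap (adjusted p = 0.667). Top2a, the topoisomerase that untangles sister DNA, read 10.92, 11.25 and 11.37 in WT and 11.57, 10.98 and 10.47 in KO at P15. Its P20 arrays were 11.38, 11.45 and 11.64 in WT and 11.01, 11.26 and 11.32 in KO, a difference of -0.29 ± 0.23 without overlap (adjusted p = 0.72). Ncapg, a condensin I subunit close to background, did not pass in any comparison.

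Of the spindle and cytokinesis genes, Prc1 rose. It encodes a protein that bundles antiparallel microtubules in the central spindle. It went from 11.84, 12.06 and 12.35 to 12.83, 13.00 and 13.19 in WT and from 12.35, 12.10 and 11.59 to 13.22, 13.27 and 13.29 in KO. The rise was 0.93 ± 0.18 (SE, 1.90-fold, adjusted p = 0.00479) in WT and 1.25 ± 0.18 (2.37-fold, adjusted p = 0.000538) in KO. All KO P20 arrays lay above all WT P20 arrays, by 0.25 ± 0.18, which did not pass (adjusted p = 0.678). Tpx2, an activator of aurora A, and Ect2, the exchange factor that activates RhoA for the cleavage furrow, did not pass in any comparison, with WT age changes of -0.04 ± 0.14 and 0.17 ± 0.07.

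The age calls of WT and KO testes came from separate arrays. Of the 15 genes that rose in WT, 14 (93.3%) also rose in KO, and these were 93.3% of the KO rises. Over all genes above background, 90.8% of those that rose in WT also rose in KO, or 76.6% of the KO rises, so the overlap in WT lay near the background. The 14 were Ccna1, Aurka, Aurkc, Birc5, Cdca8, Pkmyt1, Bub1b, Bub3, Cdc20, Cdc27, Pttg1, Cenpf, Smc4 and Prc1. Plk1 rose in WT alone and Cdk2 in KO alone. The 3 genes that fell in WT (Cdc25b, Cdc25c and Cenpa) all fell in KO and were 33.3% of its 9 falls, where 87.4% of all genes above background that fell in WT fell in KO too, or 67% of the KO falls. The other 6 falls in KO were Cdk2ap2, Plk1, Cdc25a, Cdc16, Aurkb and Incenp. None of these genes passed the test of the difference between the genotypes' age changes (0 of 48, against 0.0552% of all probes), so a call in 1 genotype alone is not shown to differ from the other.

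Under all 25 other settings of the analysis, 13 of the 18 age calls in WT and 15 of the 24 in KO were kept. In WT, Bub1b passed under 10 of the settings, Plk1 under 14, and Bub3, Cdc20 and Cdc25b under 22 each. In KO, Incenp passed under 7, Cdk2 under 10, Aurkb under 15, Plk1 and Smc4 under 17, Cdc25b under 18, and Cdc20, Cdc25a and Cdc25c under 24 each. With cyclic loess the falls of Aurkb, Cdc25b, Cdc25c, Incenp and Plk1 in KO were lost. The WT rise of Bub1b was lost without any 1 of the P20 arrays of either genotype or without replicate 1 or 2 of WT P15. Bub3 lost its WT call without WT P15 replicate 1, or without array 1 or 3 of WT P20, and Cdc20 without array 1 or 2 of WT P15 or array 3 of WT P20. In KO, the falls of Aurkb and Cdc25b were lost without KO P15 replicate 3 or array 1 or 3 of KO P20, and that of Aurkb also without KO P15 replicate 1. The KO rise of Smc4 was lost without array 2 of WT P15, array 2 or 3 of KO P15, or array 2 or 3 of KO P20. The calls of Cdk2 and Incenp in KO were lost when 10 and 9 of the 12 arrays, respectively, were left out in turn. These included arrays 1 and 3 of KO P15 and arrays 1 and 2 of KO P20 for both.

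Probes of the same gene did not always follow each other. The 48 genes had 49 further probes, of which 28 were above background. Of those, 16 belonged to genes called with age in WT, where 14 had the same sign and 9 were called too. In KO the same counts were 19, 16 and 11. For genes with several probes the values above are those of the brightest alone.

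At P15 the question was whether the division genes already differed without Topaz1, and 0 of the 48 passed in limma. At an unadjusted p under 0.05 there were 4, a count that is not weighed because the share over all probes at that level was not taken. The KO arrays lay wholly above the WT arrays for 6 genes (12.5%), against 5.7% of all probes and 6.97% of the genes above background. These were Spc24, Plk1, Cenpa, Birc5, Cdc25c and Cks2, the last of them below background. They lay wholly below for 4 genes (8.33%), against 5.55% and 5.17%: Smc2, Ttk, Cdc25a and Bub1. Further probes above background overlapped between genotypes at P15 for Birc5 (-0.16 and -0.08), Cenpa (-0.04), Cdc25c (-0.01) and Spc24 (0.00). A further Ttk probe (-0.04) was not above background on any P15 array and is not interpreted there. For Cdk2, further probes with differences of -0.54 and -0.38 lay wholly below WT. By the brightest probes, the differences of the 48 genes ranged from -0.27 to 0.55 with a median of -0.01. Of these, 22 of 48 were above 0, whereas the median of all probes was 0.001.

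At P20, when germ cells of a wild-type first wave begin to divide, 1 gene fell (Cdk2ap2, 2.08% of the 48) and 0 rose, against 0.311% of all probes that fell and 0.731% that rose. Over the genes above background these shares were 0.638% and 1.57%. Cdk2ap2 was listed with its fall already known, so its 2.08% cannot be weighed against these shares. At an unadjusted p under 0.05 there were 8, and here too no share over all probes was taken to weigh the count. Arrays did not overlap for 7 genes that were higher in KO (14.6%) and 7 that were lower (14.6%), against 8.72% and 9.26% of all probes and 13.6% and 13% of the genes above background. The higher ones were Bub1b, Prc1, Plk4, Ncaph, Cdk2, Bub3 and the dim Ccnb2, and the lower ones Plk1, Cdk2ap2, Cdc25a, Cdc16, Spc25, Top2a and the dim Wee1. These shares lay near those of the genes above background, which leave out dim genes such as Ccnb2 and Wee1. Further probes above background overlapped between genotypes at P20 for Cdk2 (0.11, -0.07 and -0.03), Bub1b (0.26), Ncaph (0.30), Spc25 (-0.21) and Top2a (0.15). By the brightest probes, the differences of the 48 genes ranged from -0.85 (Plk1) to 0.29 (Pkmyt1), with a median of -0.01 and 23 of 48 above 0.

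**Figure D4:**
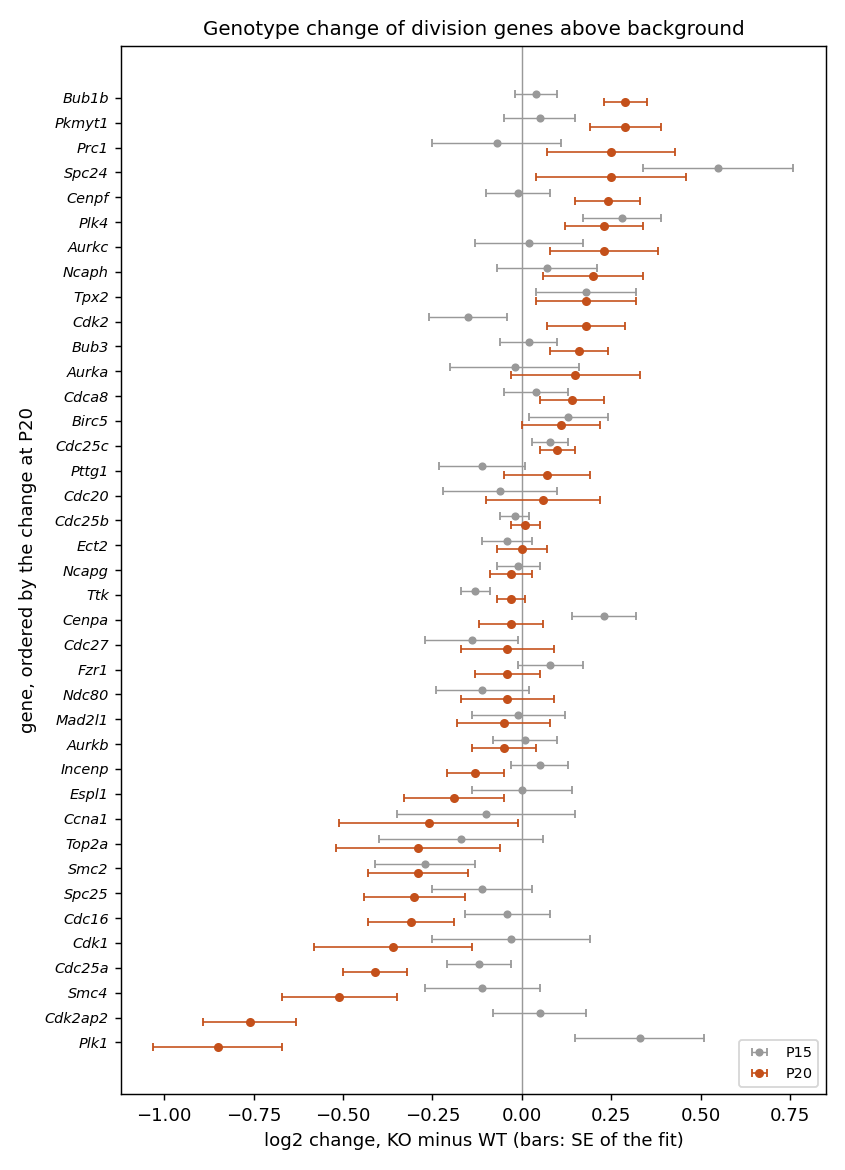
Log2 difference of KO minus WT for the 39 division genes above background at P15 (grey) and P20 (orange), ordered by the P20 difference, with SE bars from the fit. Most points lie within 0.3 of 0, Plk1 (-0.85) and Cdk2ap2 (-0.76) stand lowest at P20, and Spc24 (0.55) highest at P15.

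Of 118 further division genes listed by name, 112 had a probe. None of the 112 passed between genotypes at P15, at P20 or in the difference of effects (0 each), and their median P20 difference was 0.00. The P20 values ran from -0.66 for Oip5, which helps load CENP-A at centromeres, to 0.42 for Kif20b, a kinesin of cytokinesis. With age 15 rose (13.4%) and 16 fell (14.3%) in WT, against 17.4% and 25.9% of the genes above background. In KO 22 rose (19.6%) and 23 fell (20.5%), against 20.6% and 33.8%.

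Of 12 measured division regulators enriched in meiosis, 3 rose and 2 fell with age in WT, and 4 rose and 2 fell in KO. Of all genes above background, 17.4% rose and 25.9% fell in WT, and 20.6% and 33.8% in KO. The counts of the short lists given here and in the next paragraph are not weighed against these shares. Hspa2, a chaperone that CDK1 needs in mouse spermatocytes, rose by 1.75 ± 0.32 in WT (SE, limma adjusted p = 0.00296) and 1.92 ± 0.32 in KO (adjusted p = 0.00112). Spdya, an activator of CDK2 at meiotic telomeres in mice, rose by 1.58 ± 0.25 and 1.52 ± 0.25 (adjusted p = 0.00123 and 0.00101). The WT falls were those of Arpp19, an inhibitor of the phosphatase PP2A (-0.49 ± 0.15, adjusted p = 0.0483), and Cpeb1, a regulator of translation (-0.28 ± 0.09, adjusted p = 0.0495). Of 34 further kinetochore and checkpoint genes 6 rose and 4 fell in WT, and of 24 kinesin and spindle genes 4 rose and 2 fell. Mad2l2 (1.47 ± 0.15), Cenpn (1.30 ± 0.14), which binds CENP-A nucleosomes, and Cdk5rap2 (1.04 ± 0.13), a centrosomal protein, rose in WT.

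Of 15 cyclins, inhibitors and other genes of G1 and S phase, 2 rose and 5 fell with age in WT. The WT shares of all genes above background were 17.4% and 25.9%. Cdkn2c, an inhibitor of CDK4 and CDK6, rose by 1.68 ± 0.18 in WT and 1.37 ± 0.18 in KO (SE, limma adjusted p = 9.93e-05 and 0.000239), and Ccne2, which encodes cyclin E2, by 0.58 ± 0.18 and 0.65 ± 0.18 (adjusted p = 0.0471 and 0.0227). Ccnd1, a cyclin of G1, fell by 0.78 ± 0.10 and 0.76 ± 0.10 (adjusted p = 0.00028 and 0.000201), and E2f1, a transcription factor of S phase genes, by 0.72 ± 0.11 and 0.90 ± 0.11 (adjusted p = 0.000888 and 0.000141). Of 14 further subunits and regulators of the anaphase-promoting complex, 0 rose and 2 fell in WT. These were Anapc4 and Anapc5, which fell in both genotypes, by 0.71 ± 0.09 and 0.33 ± 0.08 in WT. Of 13 further condensin and cohesin genes, 0 rose and 1 fell in WT: Cdca5, or sororin, which stabilises cohesin, fell by 0.44 ± 0.09 (adjusted p = 0.00529) and gave -0.07 ± 0.09 in KO. Cenpb, which binds centromeric repeats, fell by 0.90 ± 0.15 in WT and 1.27 ± 0.15 in KO (SE, limma adjusted p = 0.00202 and 0.000146). The chromokinesin genes Kif4 and Kif22 fell in WT by 0.68 ± 0.15 and 0.38 ± 0.08.

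The P15 arrays differed in their pachytene markers. The summed intensity of the 13 pachytene markers was 5076, 8967 and 18230 on the WT P15 arrays and 15460, 5862 and 5403 on the KO P15 arrays. Of the 39 division genes above background, 16 (41.0%) were highest on WT P15 replicate 3 and on KO P15 replicate 1, the arrays with the highest marker sums, against 13.0% of 12074 genes. Aurka, Cdk1, Cdc20, Prc1 and Top2a were among the 16. The part of this spread in the P15 comparison was not tested. The median range of a gene over the 3 arrays of a group was 0.21 in WT P15, 0.30 in KO P15, 0.28 in WT P20 and 0.23 in KO P20 on the log2 scale, and the widest was 1.10 for Top2a in KO P15.

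**Figure D5:**
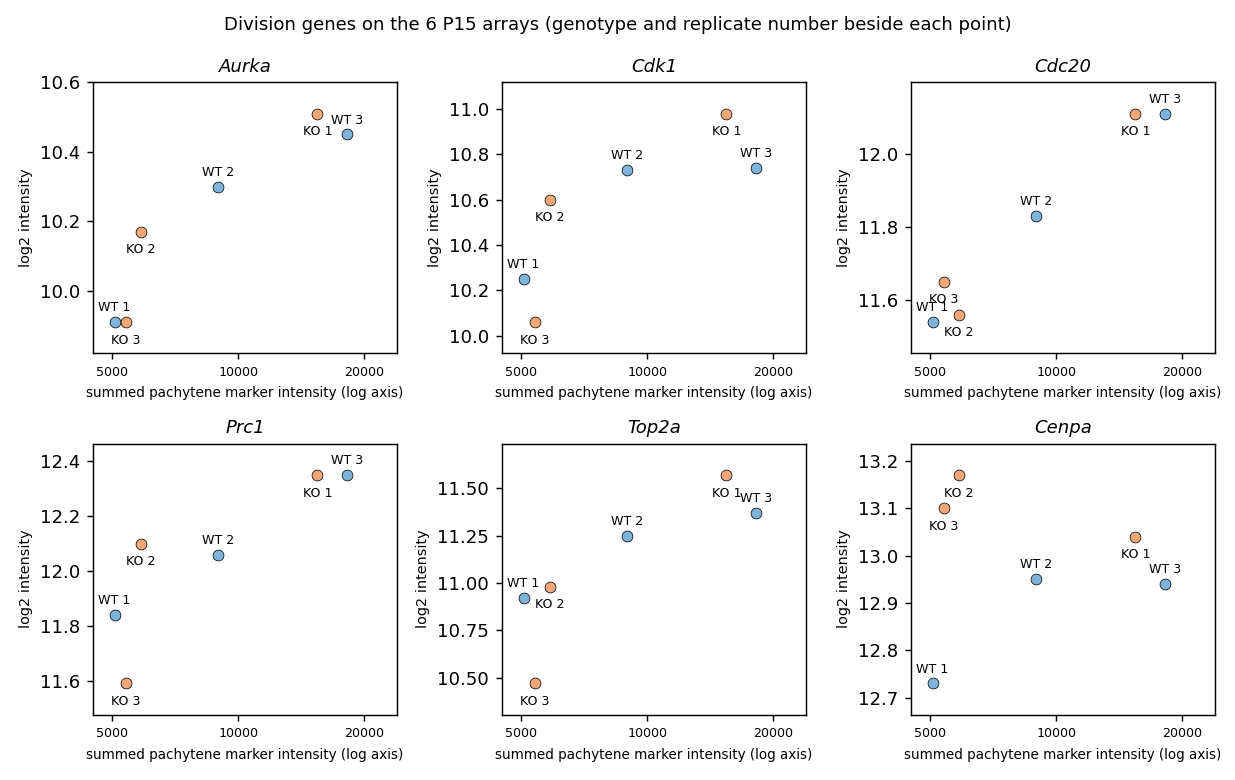
Log2 intensity of 6 division genes, chosen after their values were seen, on the 6 P15 arrays against the summed linear intensity of 13 pachytene markers on a log axis, with the genotype and replicate number beside each point. Aurka, Cdk1, Cdc20, Prc1 and Top2a are highest on KO replicate 1 and WT replicate 3, where the marker sums are 15460 and 18230, and Cenpa is not.

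At P20 the pachytene marker sum was 64780, 72950 and 77190 in WT and 81470, 81250 and 81050 in KO, and 2 of the 13 markers rose in KO. WT P20 replicate 1, with the lowest sum, was the lowest WT P20 array for 18 of the 39 division genes (46.2%), against 33.8% of genes above background. The 11 round spermatid markers summed to 3383, 4514 and 5108 in WT and 4368, 4464 and 4607 in KO, and 0 passed. For 5 of the 11 all KO arrays lay below all WT arrays, and for 1 all lay above. Over all probes these shares were 9.26% and 8.72%, and over the genes above background 13% and 13.6%. Other marker lists also separated: 7 of the 11 Sertoli markers lay wholly lower in KO and 5 of the 13 pachytene markers wholly higher. Acrv1, an acrosomal protein gene, was among the lower round spermatid markers. It read 7.47, 7.99 and 8.19 in WT and 7.42, 7.47 and 7.41 in KO. Acr, which encodes acrosin, read 10.13, 10.73 and 10.88 in WT and 10.75, 10.80 and 10.78 in KO. Spermatogonial markers (12) summed to 7001 to 7843 in WT and 6101 to 6526 in KO at P20, with 0 passing. Sertoli markers (11) summed to 81850 to 86270 in WT and 67120 to 76660 in KO, and 1 fell. KO P20 replicates 1 and 3 also carried epididymal markers, of which 6 of 8 were not above background on any of the 3 arrays, with sums of 2872 and 3430 against 996.7 on replicate 2 and 960.5 to 1235 in WT. Adipocyte markers summed to 2546 to 2592 in KO and 1201 to 1522 in WT, and 3 of 7 rose. The part of these markers in the fall of Cdk2ap2 and in the P20 values of the other division genes was not tested. Without KO P20 replicates 1 and 3 the Cdk2ap2 change was -0.90 and did not pass (adjusted p = 0.147), with 1 KO P20 array left, which is assumed to vary like the arrays of the other groups.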

How the data were processed

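Testis RNA of 4 groups of 3 samples was measured on 12 Illumina mouse bead arrays, and the submitters' processing notes name BeadStudio, with its version not given in the sources used here. Linear intensity values were deposited by the authors in non-normalized and quantile-normalized form. Quantile-normalizing the deposited non-normalized intensities gave the authors' values to within 0.0124 on the log2 scale. Arrays had median intensities of 128.2 to 143.4. Detection calls, control spots and slides are not used here.

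Intensities were quantile-normalized over the 12 arrays without background subtraction, which compresses fold changes, and log2 was taken after adding an offset of 50. Background was the mode of the log2 values plus 1.645 standard deviations of the values below it. The model of limma 3.58.1 (R 4.3.3) had a mean for each of the 4 groups, 45281 probes, 8 residual degrees of freedom and 2.14 from the prior. There were 5 comparisons, each adjusted by Benjamini-Hochberg over all probes, and the script was tested on simulated data. The error beside a change is its standard error (SE) in that model, with 3 arrays per group. A fold against a group with 0 arrays above background is a lower bound.

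Symbols came from the platform annotation, in which 34885 probes had 1 symbol, 18 several and 10378 were not listed. Chromosomes and promoters are those of RefSeq on GRCm38.p6. The members, the lists of further division genes and the marker lists were chosen with earlier results of these data known. Values per array were given for members past the threshold between genotypes, for up to 6 members per direction without overlap, for up to 8 per direction past it with age in WT, and for sets of paralogues. Cdk1, Mad2l1, Cdc20 and other members named outside this rule, and the genes of the P15 plot, were chosen after their values were seen. Alternatives covered starting values, scaling, background, offset, filter, variance model, the groups fitted, the replicate block, the probes of a gene and leaving out arrays.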

Additional observations from a re-analysis of the deposited data

Results flagged for a closer look

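Plk1 stood apart because its KO arrays lay on opposite sides of its WT arrays at the 2 ages. All 3 KO arrays were above all 3 WT arrays at P15 (0.33 ± 0.18, SE) and below them at P20 (-0.85 ± 0.18). The genotype effect at P20 minus that at P15 was -1.18 ± 0.25 on the log2 scale, which limma did not call (adjusted p = 0.188). It was -1.40 (adjusted p = 0.0187) without WT P20 replicate 1. Over the alternatives tried it ran from -1.40 to -0.97, with adjusted p from 0.0187 to 0.505.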

How the results depend on the processing

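No call of a named gene turned its sign under an alternative (0 reversed), although uncalled values near 0 crossed it, such as Aurkb at P20 (-0.11 to 0.05), and 0 of 48 genes passed at P15 under all of them. The P20 count, 1 as reported, was 2 with cyclic loess, 75th percentile scaling, normexp at either offset, an offset of 16, an intensity trend, only the compared groups fitted or the mean over a gene's probes. It was 3 with dim probes left out, 4 with array weights, 0 with the replicate block and 0 without KO P20 replicates 1 and 3. Leaving out single arrays gave 0 to 2. The count for the difference of effects, 0, became 1 (Plk1) without WT P20 replicate 1, and leaving out single arrays gave 0 to 1. Fitting only the compared groups gives no value for it. Over all probes the calls ranged from 0 to 150 at P15 (2 as reported, 150 without KO P15 replicate 1), from 130 to 905 at P20 (472) and from 1 to 69 for the difference (25). The age counts of the 48 genes ranged from 14 to 21 in WT and from 17 to 25 in KO. Replicate numbers did not pair the samples: deviations of same-numbered WT and KO arrays correlated at -0.334 to -0.038 at P15 and -0.114 to 0.223 at P20, and same-numbered P15 and P20 arrays at 0.088 to 0.153 in WT and -0.381 to 0.039 in KO. With the replicate block the adjusted p of Cdk2ap2 at P20 was 0.0648, and the age calls of Plk1 were lost (0.0602 in WT and 0.0509 in KO). The WT age call of Cdc25b was lost with 75th percentile scaling, which moved the median of all probes at P15 by 0.11, and with the mean over a gene's probes. The causes were not tested. Probes near background limit 9 of the 48 genes to bounds.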
